A study of Mus musculus with 2 samples.

Results

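Trp53, which encodes the tumour suppressor p53, and 8 genes that p53 activates (Mdm2, Ccng1, Phlda3, Trp53inp1, Sesn2, Bax, Bbc3 and Eda2r) were described across cell groups in 2 cultures of induced myogenic progenitor cells. The 9 genes were taken as a list of symbols, and all 9 are among the 25906 genes measured. The transcript level of Trp53 itself lay within 1.11-fold between the clones in each of 4 cell groups, while 5 of the 8 targets were at least 2-fold higher in the MyoD-KO clone than in the MyoD-WT clone in both cycling and non-cycling Pax7+ cells. In muscle-rich cells Phlda3 alone was. Bax was lower there in the MyoD-KO clone.

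The MyoD-KO and MyoD-WT groups are a single clone each. Both began as mouse embryonic fibroblasts, which Myf6 overexpression together with forskolin, RepSox and CHIR99021 turned into muscle progenitors. Such cultures hold dividing Pax7+ precursors, Myog+ cells that have begun to differentiate, and muscle cells rich in sarcomere transcripts. Colonies that no longer depended on Myf6 were picked and harvested at passage 4 in medium with forskolin (5 µM), RepSox (5 µM), CHIR99021 (3 µM) and bFGF (10 ng/mL). The strain label of both clones is Myod1tm1Jae, and only the genotype label separates them. One library per genotype means that there are no replicates: no test between the clones was made, intervals cover counting error only, and the genotype cannot be told apart from other differences between 2 clones.

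Cells divide, arrest or die partly according to p53, a transcription factor that is held at a low level by the ubiquitin ligase Mdm2 and accumulates after DNA damage and other stresses. Because p53 is controlled mainly through the stability and modification of its protein, its transcript level need not follow its activity, and the transcripts of its targets are the usual readout. Mdm2 is itself a target and closes a negative feedback loop. In muscle precursors p53 has been reported to restrain the switch from proliferation to differentiation in some settings.

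The start regions of 4 of the 9 genes hold the 10-base p53 half-site motif. They are shown because binding of p53 to a full site, a pair of such motifs, is the textbook route to activation. RefSeq windows of the 250 bases before the annotated start were found for 8 of the 9 genes on GRCm38.p6, a build other than the one counted on, with none for Trp53inp1. Capitals mark the motif, searched by its name on both strands, where it reads alike. The windows are printed in the direction of the gene, from chr11:69580109-69580358 on the plus strand for Trp53, and on the minus strand from chr10:117710759-117711008 for Mdm2, chr11:40755287-40755536 for Ccng1 and chr7:45466899-45467148 for Bax.

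Trp53: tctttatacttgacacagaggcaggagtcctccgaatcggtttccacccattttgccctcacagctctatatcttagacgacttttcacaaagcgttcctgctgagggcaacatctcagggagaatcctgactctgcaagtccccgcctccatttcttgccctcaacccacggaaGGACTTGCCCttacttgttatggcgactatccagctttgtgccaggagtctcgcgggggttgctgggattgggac
Mdm2: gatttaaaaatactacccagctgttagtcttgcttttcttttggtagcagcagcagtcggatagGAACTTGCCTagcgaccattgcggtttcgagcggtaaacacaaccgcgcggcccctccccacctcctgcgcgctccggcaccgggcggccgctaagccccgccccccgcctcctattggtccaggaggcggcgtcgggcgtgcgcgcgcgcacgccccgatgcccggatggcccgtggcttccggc
Ccng1: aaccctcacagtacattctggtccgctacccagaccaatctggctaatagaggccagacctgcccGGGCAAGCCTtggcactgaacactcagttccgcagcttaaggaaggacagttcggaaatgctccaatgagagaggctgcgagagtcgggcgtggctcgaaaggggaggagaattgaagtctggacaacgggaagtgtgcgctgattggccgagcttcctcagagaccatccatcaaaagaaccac
Bax: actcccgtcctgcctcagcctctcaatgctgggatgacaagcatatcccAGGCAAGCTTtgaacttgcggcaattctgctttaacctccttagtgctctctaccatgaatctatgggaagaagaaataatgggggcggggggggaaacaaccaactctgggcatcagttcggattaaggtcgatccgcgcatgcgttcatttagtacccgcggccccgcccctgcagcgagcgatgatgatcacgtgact

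The motif began 75 bases before the start in Trp53, 186 in Mdm2, 185 in Ccng1 and 201 in Bax. It was found in 7.1% of 32851 distinct mouse windows of this length, and a pair of such motifs at most 13 bases apart in 0.0639%. None of the 8 genes had such a pair in its windows. A match is a description of letters, and the windows of Phlda3, Sesn2, Bbc3 and Eda2r without one say nothing of p53 elsewhere in those genes.

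The MyoD-KO library held 282739488 UMIs (unique molecular identifiers, each 1 captured transcript) in 7670 barcodes and the MyoD-WT library 285232252 in 8191, of which 5638 and 7316 cells were kept. The 2 libraries shared 14 barcodes. Levels are given as CPM (counts per 1000000 UMIs), the UMIs of a gene summed over the cells of a group and divided by all UMIs of that group, with exact 95% Poisson intervals. They come from tags at the 3' end and are compared between groups, not between genes. Myod1, the targeted gene, was at 63.3 CPM in MyoD-KO and 162 CPM in MyoD-WT cells. Which part of it the allele removes is not given in the sources used here, so its 3' tags do not check the label. Y-linked genes summed to 1.65 CPM in MyoD-KO and 186 CPM in MyoD-WT cells.

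Kept cells with at least 5000 UMIs were grouped by genes outside the list. Muscle-rich cells had at least 3% of their UMIs from 30 sarcomere genes, Myog+ cells were the others with Myog at 200 CPM or more of the cell, and Pax7+ cells the remainder with Pax7 at 50 CPM or more. A threshold of 2593 CPM on summed S phase and G2M genes split the Pax7+ cells. Cycling Pax7+ cells numbered 2138 in MyoD-KO and 3965 in MyoD-WT (39.1% and 54.8% of grouped cells), and non-cycling Pax7+ cells 902 and 371 (16.5% and 5.13%). There were 834 and 1072 Myog+ cells, 952 and 1106 muscle-rich cells, and 643 and 722 other cells. Mki67, a marker of dividing cells, was at 303 CPM in MyoD-KO and 195 CPM in MyoD-WT cycling cells, against 19.5 and 16.9 CPM in non-cycling ones, and sarcomere genes summed to 101841 and 70477 CPM in muscle-rich cells. These values follow from the limits that made the groups and do not check them. S phase genes still summed to 1056 CPM in MyoD-KO and 1057 CPM in MyoD-WT non-cycling cells, against 2097 and 2017 CPM in cycling ones. Some Myog+ cells also passed the Pax7 level (213 of the MyoD-KO and 381 of the MyoD-WT cells).

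Trp53 was at 130 CPM (95% interval 128 to 132) in MyoD-KO and 122 CPM (120 to 124) in MyoD-WT cycling Pax7+ cells. In non-cycling Pax7+ cells it was at 97.2 CPM (93.8 to 101) in MyoD-KO and 87.6 CPM (81.9 to 93.7) in MyoD-WT cells, and in Myog+ cells at 106 CPM (103 to 109) and 102 CPM (99.4 to 105). Muscle-rich cells had the lowest levels, 31.2 CPM (29.6 to 32.8) in MyoD-KO and 33.9 CPM (32.2 to 35.6) in MyoD-WT cells. The order of the cell groups was thus the same in both clones, cycling Pax7+ above Myog+ above non-cycling above muscle-rich. Between neighbours among the 8 values, the intervals overlapped between the clones in Myog+ cells and in muscle-rich cells, and between MyoD-WT Myog+ and MyoD-KO non-cycling cells. The MyoD-KO over MyoD-WT ratio was 1.06 (1.04 to 1.09) in cycling Pax7+, 1.11 (1.03 to 1.20) in non-cycling Pax7+, 1.04 (0.992 to 1.08) in Myog+ and 0.921 (0.857 to 0.989) in muscle-rich cells. Its direction depended on the scaling: with TMM, which lowered every MyoD-KO over MyoD-WT log2 ratio by 0.21 in cycling Pax7+, 0.15 in non-cycling Pax7+, 0.18 in Myog+ and 0.07 in muscle-rich cells, the log2 ratio of Trp53 was -0.13 in cycling Pax7+ and -0.13 in Myog+ cells, in place of 0.09 and 0.05. No difference of Trp53 between the clones is therefore given a direction.

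**Figure D1:**
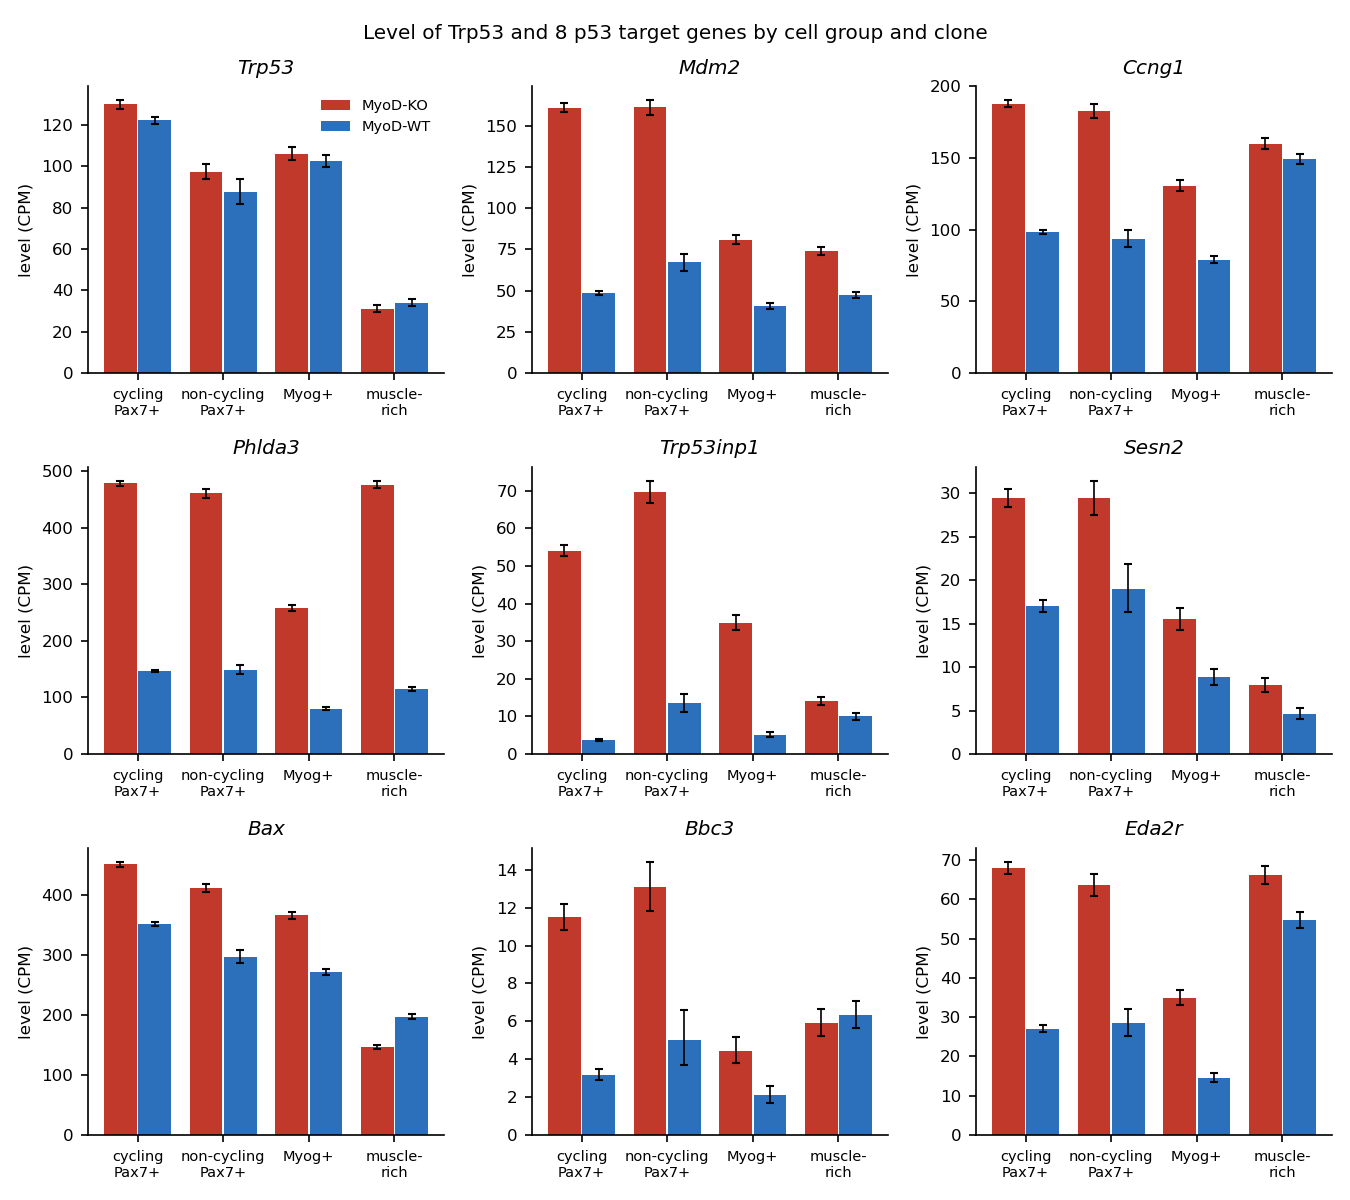
Level in CPM of each of the 9 genes in cycling Pax7+, non-cycling Pax7+, Myog+ and muscle-rich cells of the MyoD-KO clone (red) and the MyoD-WT clone (blue); bars are CPM of the summed counts and error bars exact 95% Poisson intervals. Trp53 runs in parallel in both clones, while Phlda3 lies at 258 to 478 CPM in MyoD-KO and 80.3 to 149 CPM in MyoD-WT groups.

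For the targets, a gene was counted as higher or lower where the groups differed at least 2-fold and the higher one had at least 10 CPM. In cycling Pax7+ cells 5 of the 9 genes were counted as higher in the MyoD-KO clone and 0 as lower, where 13.6% of all 8675 genes tested were higher and 3.9% lower. In non-cycling Pax7+ cells the same 5 of 9 were higher, Mdm2, Phlda3, Trp53inp1, Bbc3 and Eda2r, against 12.2% of all genes. In Myog+ cells 3 of the 8 genes tested were (Phlda3, Trp53inp1 and Eda2r), against 10.7%, and in muscle-rich cells 1 of the 7 tested was, Phlda3, against 10.8%. None was counted as lower in these groups, where 3.21% of all genes were lower in non-cycling Pax7+, 4.1% in Myog+ and 6.34% in muscle-rich cells. The median log2 ratio of the tested genes on the list was 1.33, 1.16, 0.90 and 0.27 over these 4 groups in that order, and that of all genes tested 0.10, 0.16, 0.11 and 0.04. Over all kept cells 4 of 8 tested genes were higher and 0 lower (13.3% and 3.4% of all genes; median 0.92 against 0.08), namely Mdm2, Phlda3, Trp53inp1 and Eda2r. The choice of the list was made with earlier results of these data known, so these counts describe it and are no independent evidence.

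With TMM the share of all genes higher and lower was 10.5% and 6.49% in cycling Pax7+, 9.85% and 4.47% in non-cycling Pax7+, 8.46% and 6.11% in Myog+, 9.61% and 7.37% in muscle-rich and 10.6% and 5.36% in all cells. The 5 genes in each Pax7+ group, the 3 in Myog+ cells and Phlda3 in muscle-rich cells were the ones counted under TMM too, whereas over all cells Eda2r was not.

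**Figure D2:**
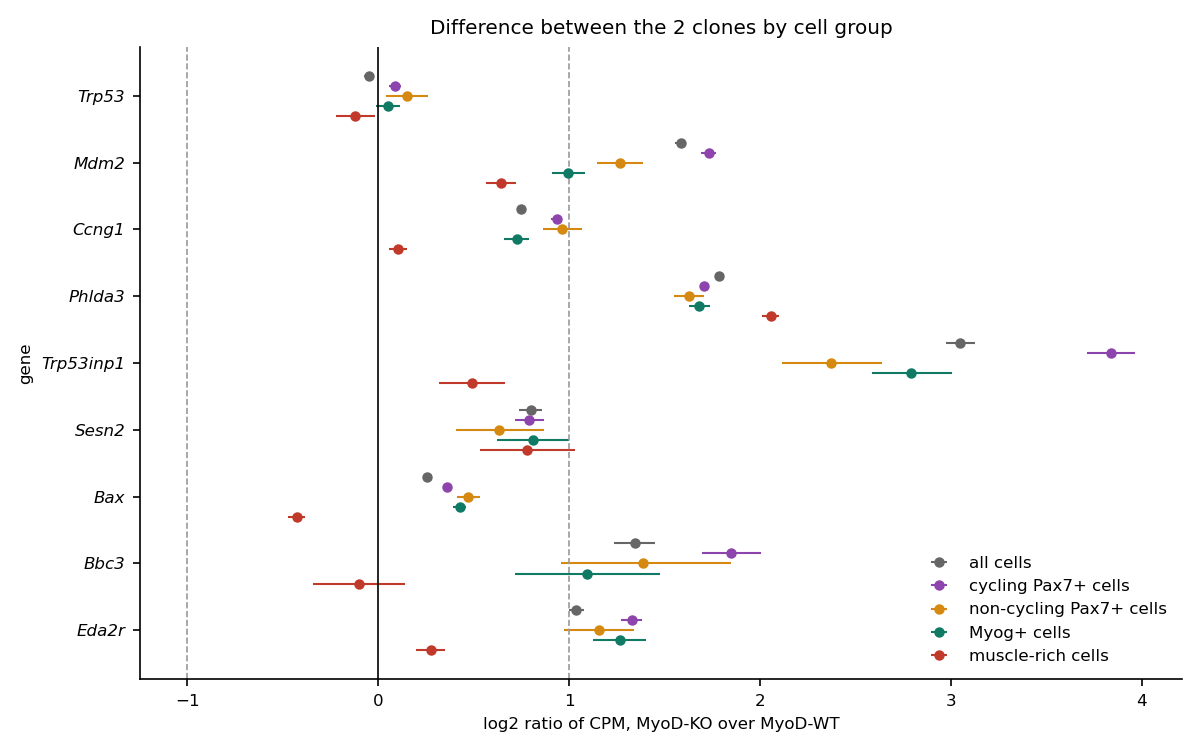
Log2 ratio of CPM, MyoD-KO over MyoD-WT (x axis), for each of the 9 genes in all cells and in the 4 cell groups (colours); horizontal lines are exact 95% intervals for counting error and dashed lines mark 2-fold. Trp53 lies near 0 in every group, with a direction that depends on the scaling, and muscle-rich cells (red) hold the lowest ratio for every target other than Phlda3 and Sesn2.

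Mdm2, the ligase that marks p53 for degradation, was at 161 CPM (159 to 164) in MyoD-KO and 48.5 CPM (47.4 to 49.6) in MyoD-WT cycling Pax7+ cells, a 3.32-fold difference (3.23 to 3.41). In non-cycling Pax7+ cells it was at 161 CPM (157 to 166) in MyoD-KO and 67.1 CPM (62.0 to 72.4) in MyoD-WT cells. Myog+ cells had 81.0 CPM (78.1 to 83.9) and 40.6 CPM (38.7 to 42.5), and muscle-rich cells 74.0 CPM (71.6 to 76.4) and 47.4 CPM (45.4 to 49.4). Every MyoD-KO group thus lay above every MyoD-WT group for this gene, and its MyoD-WT levels stayed between 40.6 and 67.1 CPM. The ratio was 2.40-fold (2.22 to 2.61) in non-cycling Pax7+ cells, 1.56-fold (1.48 to 1.65) in muscle-rich cells, and in Myog+ cells just under the limit (1.995; 1.88 to 2.12). Sorted over the 8 values, the 2 MyoD-KO Pax7+ groups overlapped in their intervals, as did MyoD-KO muscle-rich with MyoD-WT non-cycling cells, and cycling Pax7+ with muscle-rich cells of the MyoD-WT clone.

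Ccng1 encodes cyclin G1, a target that acts back on Mdm2 through a phosphatase. Its level was 188 CPM (185 to 191) in MyoD-KO and 98.3 CPM (96.8 to 99.9) in MyoD-WT cycling Pax7+ cells, 182 CPM (178 to 187) and 93.4 CPM (87.5 to 99.7) in non-cycling ones, and 131 CPM (127 to 134) and 79.0 CPM (76.4 to 81.7) in Myog+ cells. In muscle-rich cells it was at 160 CPM (156 to 164) in MyoD-KO and 149 CPM (145 to 152) in MyoD-WT cells. The ratio was thus 1.91 (1.87 to 1.95) and 1.95 (1.82 to 2.09) in the 2 Pax7+ groups, just short of 2-fold, and 1.07 (1.04 to 1.11) in muscle-rich cells.

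Phlda3, a pleckstrin homology protein that restrains Akt signalling downstream of p53, was at least 3.09-fold higher in MyoD-KO cells in every group. It was at 478 CPM (474 to 483) in MyoD-KO and 147 CPM (145 to 148) in MyoD-WT cycling Pax7+ cells, 460 CPM (453 to 468) and 149 CPM (141 to 157) in non-cycling ones, 258 CPM (252 to 263) and 80.3 CPM (77.7 to 83.0) in Myog+ cells, and 475 CPM (469 to 482) and 114 CPM (111 to 117.5) in muscle-rich cells. The fold difference was 3.26 (3.21 to 3.32), 3.09 (2.93 to 3.26), 3.21 (3.09 to 3.33) and 4.16 (4.04 to 4.29) in this order. After each cell was thinned to 5000 UMIs, a Phlda3 UMI was found in 86.1% of MyoD-KO and 50.3% of MyoD-WT cycling Pax7+ cells, and in 83.5% and 34.9% of muscle-rich cells. Without thinning these shares were 99.9% and 97.48%, and 96.8% and 82.6%. The depth medians were 43220 and 37070 UMIs in cycling Pax7+ cells and 50809 and 38314 in muscle-rich cells. As a measure of free RNA, Myh3, a myosin of differentiated fibres, was found in 8.28% of MyoD-KO and 6.99% of MyoD-WT thinned cycling Pax7+ cells.

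Trp53inp1, a nuclear protein that promotes p53-dependent arrest and death, showed the widest gap on the list in Pax7+ and Myog+ cells. It was at 54.0 CPM (52.5 to 55.5) in MyoD-KO and 3.78 CPM (3.48 to 4.09) in MyoD-WT cycling Pax7+ cells, a 14.3-fold difference (13.1 to 15.6). In non-cycling Pax7+ cells it was at 69.6 CPM (66.7 to 72.6) in MyoD-KO and 13.5 CPM (11.3 to 16.0) in MyoD-WT cells (5.17-fold; 4.34 to 6.22), and in Myog+ cells at 34.9 CPM (33.1 to 36.9) and 5.05 CPM (4.40 to 5.76) (6.92-fold; 5.996 to 8.02). The gap was smallest in muscle-rich cells, with 14.1 CPM (13.1 to 15.2) in MyoD-KO and 10.0 CPM (9.14 to 10.99) in MyoD-WT cells (1.41-fold; 1.25 to 1.58), the group with the lowest MyoD-KO level. In thinned cells a UMI was found in 20.9% of MyoD-KO and 2.07% of MyoD-WT cycling Pax7+ cells, and in 23.2% and 4.85% of non-cycling ones, where Myh3 was found in 10.9% and 8.89%. Both MyoD-WT shares lay under that of Myh3. In muscle-rich cells, though, Myh3 was found in 98.3% of thinned MyoD-WT cells and Trp53inp1 in 5.15%. The share of so abundant a transcript sets no free RNA limit for a scarce one. The sizes of the 14.3-fold and 5.17-fold differences rest on low MyoD-WT levels, and the part of free RNA in them was not tested.

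Eda2r, a receptor of the tumour necrosis factor family on the X chromosome, was at 68.0 CPM (66.4 to 69.6) in MyoD-KO and 27.1 CPM (26.3 to 27.9) in MyoD-WT cycling Pax7+ cells, and at 63.6 CPM (60.8 to 66.5) and 28.5 CPM (25.3 to 32.1) in non-cycling ones. Myog+ cells had 35.0 CPM (33.1 to 36.9) in MyoD-KO and 14.6 CPM (13.5 to 15.7) in MyoD-WT, and muscle-rich cells 66.2 CPM (63.9 to 68.5) and 54.7 CPM (52.6 to 56.9). The ratios were 2.51 (2.42 to 2.61), 2.23 (1.96 to 2.54), 2.40 (2.18 to 2.64) and 1.21 (1.15 to 1.28) in this order. Y-linked genes, given above for all cells, differ between the clones too, and the part of sex chromosomes in the Eda2r difference was not tested.

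Bax and Bbc3 act at the mitochondrion in cell death, Bax as a pore former and Bbc3 (Puma) as its activator. Bax was at 451 CPM (447 to 456) in MyoD-KO and 352 CPM (349 to 355) in MyoD-WT cycling Pax7+ cells, 412 CPM (405 to 419) and 297 CPM (286.2 to 308) in non-cycling ones, and 366 CPM (360 to 372) and 272 CPM (268 to 277) in Myog+ cells. Its ratio was 1.28 (1.27 to 1.30), 1.39 (1.33 to 1.45) and 1.34 (1.31 to 1.38), short of 2-fold. In muscle-rich cells the order of the clones was the opposite, 147 CPM (143 to 150) in MyoD-KO and 198 CPM (193 to 202) in MyoD-WT cells, a ratio of 0.743 (0.721 to 0.767).

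Bbc3 was scarce, at 11.5 CPM (10.8 to 12.2) in MyoD-KO and 3.19 CPM (2.92 to 3.48) in MyoD-WT cycling Pax7+ cells and at 13.1 CPM (11.8 to 14.4) and 4.99 CPM (3.69 to 6.60) in non-cycling ones. The ratios there were 3.60 (3.24 to 4.01) and 2.62 (1.94 to 3.60). In thinned cells a UMI was found in 5.66% of MyoD-KO and 1.56% of MyoD-WT cycling cells, and in 6.65% and 2.43% of non-cycling ones. All 4 shares lay under those of Myh3. In thinned muscle-rich cells, though, Myh3 was found in 91.0% of MyoD-KO and 98.3% of MyoD-WT cells and Bbc3 in 3.78% and 3.62%. The Myh3 share therefore sets no free RNA limit for Bbc3. Shares this low are not read as expression in single cells, and the part of free RNA in the counted difference was not tested. Bbc3 was at 4.45 CPM (3.802 to 5.18) in MyoD-KO and 2.09 CPM (1.68 to 2.56) in MyoD-WT Myog+ cells. In muscle-rich cells it was at 5.91 CPM (5.24 to 6.64) and 6.33 CPM (5.62 to 7.10), where the intervals overlapped. With fewer than 10 CPM it was not counted in these 2 groups.

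Sesn2, a sestrin that lowers mTORC1 signalling under stress, lay under 2-fold throughout. It was at 29.4 CPM (28.4 to 30.5) in MyoD-KO and 17.0 CPM (16.4 to 17.7) in MyoD-WT cycling Pax7+ cells, 29.4 CPM (27.5 to 31.4) and 19.0 CPM (16.3 to 21.9) in non-cycling ones, 15.5 CPM (14.2 to 16.8) and 8.81 CPM (7.95 to 9.74) in Myog+ cells, and 7.90 CPM (7.12 to 8.73) and 4.59 CPM (4.00 to 5.26) in muscle-rich cells. The clones kept a near constant ratio, 1.73, 1.55, 1.76 and 1.72 in this order, while the level itself was highest in Pax7+ cells and lowest in muscle-rich cells of both.

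**Figure D3:**
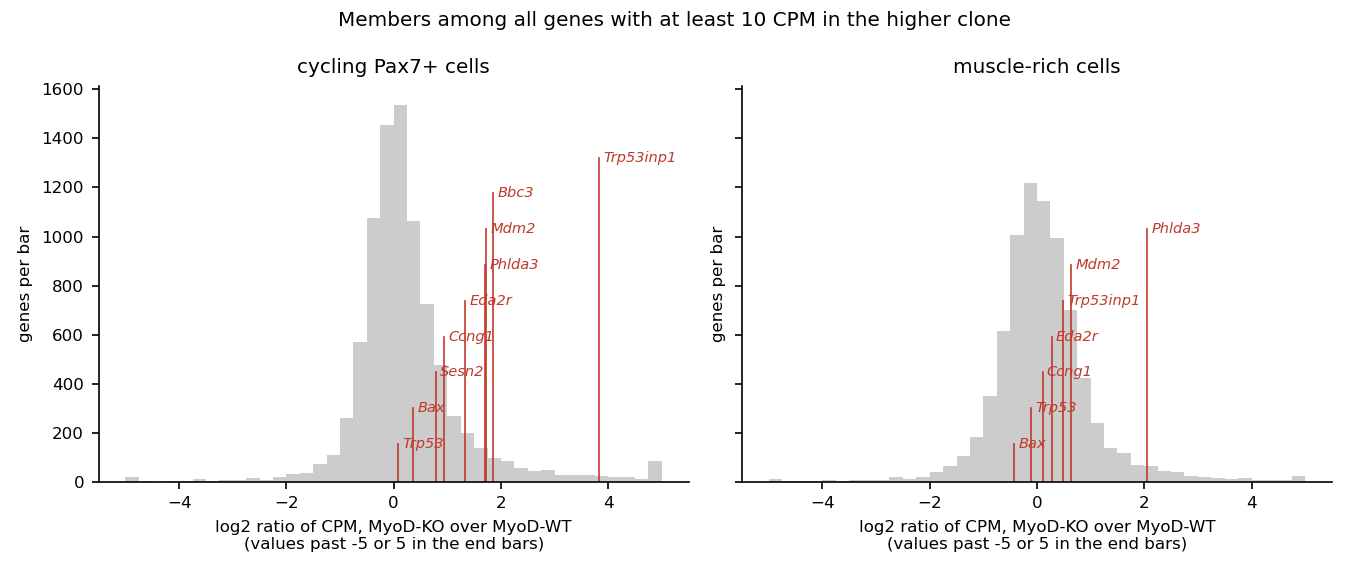
Number of genes (y axis) by log2 ratio of CPM, MyoD-KO over MyoD-WT (x axis, values past the ends in the end bars), for all genes that reach 10 CPM in either clone in cycling Pax7+ and muscle-rich cells; red lines place the genes of the list, and their heights carry no value. In cycling Pax7+ cells 9 genes are placed, with a median of 1.33 against 0.10 for all genes, and in muscle-rich cells 7, with a median of 0.27 against 0.04.

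The targets were also counted together in each cell. In cells thinned to 5000 UMIs, at least 3 of the 8 targets were found in 73.9% of MyoD-KO and 32.3% of MyoD-WT cycling Pax7+ cells, and in 73.2% and 34.8% of non-cycling ones. The shares were 48.7% and 18.1% in Myog+ cells and 44.6% and 30.1% in muscle-rich cells. No target was found in 0.935% of MyoD-KO and 4.72% of MyoD-WT cycling Pax7+ cells, so at least 1 of the 8 targets was found in most cells of both clones. Abundant targets weigh most in these shares. In thinned cycling Pax7+ cells Bax was found in 86.5% and 80.2%, Phlda3 in 86.1% and 50.3%, and Bbc3 in 5.66% and 1.56%. No set of other genes of like level was counted beside them, so the shares are not read as joint activity of the targets.

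Non-cycling were then set against cycling Pax7+ cells within each clone. In MyoD-KO 0 of the 9 genes were counted as different (0.97% of all genes were higher and 4.26% lower), and Mdm2 stood at 161 CPM in each group, a ratio of 1.00 (0.969 to 1.03). In MyoD-WT Trp53inp1 alone of 8 genes tested was counted, 3.56-fold higher (2.93 to 4.31) in non-cycling cells (3.78% of all genes higher, 5.31% lower). It was found in few thinned cells, 4.85% of non-cycling and 2.07% of cycling ones, and the part of free RNA was not tested. Mdm2 was 1.38-fold higher (1.27 to 1.497) in MyoD-WT non-cycling cells. Trp53 was lower in non-cycling cells of both clones, with ratios of 0.749 (0.719 to 0.779) in MyoD-KO and 0.718 (0.669 to 0.768) in MyoD-WT.

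Finer steps of proliferation, chosen after the data were seen, showed that the non-cycling group was mixed. Among Pax7+ cells with summed S phase and G2M genes under 1000 CPM (278 MyoD-KO and 139 MyoD-WT cells), Mdm2 was at 288 CPM (277 to 300) in MyoD-KO and 95.1 CPM (84.9 to 106) in MyoD-WT cells. In the next step, from 1000 to 2593 CPM, it was at 110 CPM (106 to 114) and 52.96 CPM (47.5 to 58.8). Trp53inp1 was at 122 CPM (115 to 129) in MyoD-KO and 21.3 CPM (16.6 to 27.0) in MyoD-WT cells of the lowest step, and at 48.5 CPM (45.6 to 51.6) and 9.49 CPM (7.28 to 12.2) in the next. Phlda3 (613 CPM in MyoD-KO and 183 CPM in MyoD-WT cells), Ccng1 (229 and 109 CPM) and Eda2r (83.3 and 33.5 CPM) also had their highest values in the lowest step in both clones, whereas Trp53 had its lowest, 80.0 CPM (74.1 to 86.1) and 83.5 CPM (73.9 to 94.0). In MyoD-WT cells the intervals of Ccng1 (98.4 to 121), Eda2r (27.6 to 40.4) and Trp53 overlapped those of other steps. Bax was instead highest in the step from 5000 CPM up, at 470 CPM in MyoD-KO and 357 CPM in MyoD-WT cells. In the lowest step it was at 440 and 317 CPM. Sesn2 was highest in the lowest step in MyoD-KO cells, at 36.6 CPM. In MyoD-WT cells it was at 18.6 CPM there, against 19.1 CPM in the next step. Bbc3 was highest in the lowest step in both clones (14.9 and 7.62 CPM), with intervals that overlapped those of the next step. In MyoD-KO cells Mdm2 was higher again in the step from 5000 CPM up, at 176 CPM (173 to 179), than in the step before it, at 120.3 CPM (116 to 125). Counting only the lowest step as non-cycling, 1 gene was counted in MyoD-KO, Trp53inp1, in place of 0. The share of all genes under that setting is not given here, so this change is not read as a result about the list. The cells of the lowest step differed in other ways: fibroblast markers summed to 1335 CPM in MyoD-KO and 320 CPM in MyoD-WT cells, against 804 and 104 CPM in the step from 5000 CPM up, and their part in these levels was not tested.

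**Figure D4:**
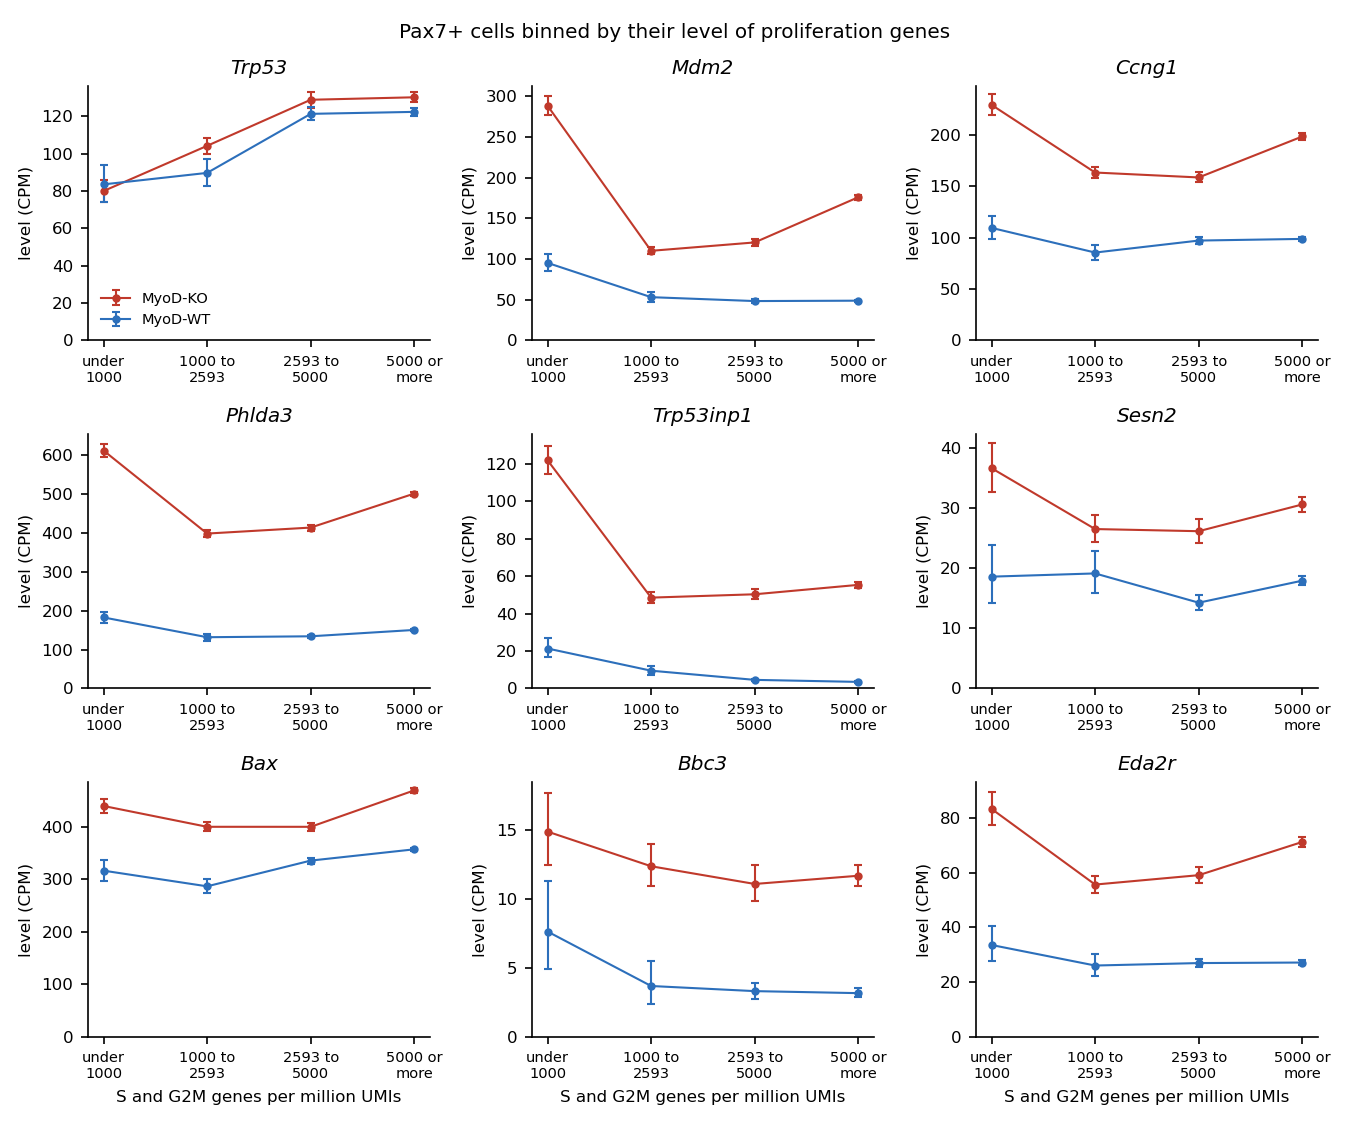
Level in CPM (y axis) of each of the 9 genes in Pax7+ cells of the MyoD-KO clone (red) and the MyoD-WT clone (blue) in 4 steps of summed S phase and G2M genes in CPM of the cell (x axis); error bars are exact 95% Poisson intervals. Mdm2 stands at 288 CPM in MyoD-KO and 95.1 CPM in MyoD-WT cells of the lowest step, above all later steps, while Trp53 is lowest there.

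Between Myog+ and non-cycling Pax7+ cells, Trp53 was slightly higher in Myog+ cells, with ratios of 1.09 (1.04 to 1.14) in MyoD-KO and 1.17 (1.09 to 1.26) in MyoD-WT, while all 8 targets had ratios under 1 in both clones. Bbc3 was counted as lower in MyoD-KO, at 0.340 (0.282 to 0.409), the only 1 of 9 genes where 9.96% of all genes were lower and 7.26% higher. In MyoD-WT Trp53inp1, at 0.375 (0.301 to 0.469), and Sesn2, at 0.465 (0.389 to 0.557), were counted as lower of 8 tested, where 8.85% of all genes were lower and 8.49% higher. Mdm2 and Trp53inp1 in MyoD-KO lay just inside 2-fold, at 0.502 (0.480 to 0.526) and 0.502 (0.468 to 0.538). The median log2 ratio of the tested genes was -0.86 in MyoD-KO and -0.81 in MyoD-WT, against -0.01 and 0.02 for all genes. The counts rest on the settings. With a minimum of 50 CPM, 0 genes were lower in either clone (8.35% of all genes in MyoD-KO and 6.19% in MyoD-WT), and with the G2M list alone 0 were in MyoD-WT (8.79%). With TMM Sesn2 was no longer counted in MyoD-WT (7.65%). With Myog+ cells taken from 400 CPM of Myog up, 5 genes were lower in MyoD-KO and 4 in MyoD-WT (11.8% and 9.91%).

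Muscle-rich cells were set against non-cycling Pax7+ cells in the same way. In MyoD-KO 6 of the 9 genes were lower (30.1% of all genes were lower, 11.6% higher): Trp53 with a ratio of 0.321 (0.301 to 0.341), Mdm2 0.459 (0.439 to 0.479), Trp53inp1 0.203 (0.185 to 0.221), Sesn2 0.268 (0.237 to 0.303), Bax 0.357 (0.346 to 0.367) and Bbc3 0.452 (0.387 to 0.528). In MyoD-WT 2 of 8 were lower (22.1% of all genes lower, 12.2% higher), Trp53 at 0.386 (0.355 to 0.421) and Sesn2 at 0.242 (0.198 to 0.297). Ccng1 was at 1.59 (1.49 to 1.71) and Eda2r at 1.92 (1.69 to 2.18) in MyoD-WT, against 0.877 (0.847 to 0.908) and 1.04 (0.983 to 1.10) in MyoD-KO. Sarcomere transcripts take a large part of the UMIs of muscle-rich cells, and the median log2 ratio of all genes was -0.47 in MyoD-KO and -0.37 in MyoD-WT. TMM raised these log2 ratios by 0.54 and 0.48. It left 3 genes lower in MyoD-KO (Trp53, Trp53inp1 and Sesn2; 15.6% of all genes lower, 21.1% higher), and in MyoD-WT Sesn2 lower and Ccng1 and Eda2r higher (10.8% lower, 19.9% higher).

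Within cycling Pax7+ cells, the other 7 targets were higher in cells with more Mdm2, while Trp53 had overlapping intervals. The share of all genes that were higher in such cells was not computed, so this count has no background beside it. Cells were split by their own Mdm2 level in steps chosen after the data were seen: 497 of the MyoD-KO cells (23.2%) and 50 of the MyoD-WT cells (1.26%) had Mdm2 at 200 CPM or more, and 512 and 2393 under 50 CPM. In MyoD-KO, cells at 200 CPM or more had Trp53inp1 at 126 CPM (121 to 131), against 19.6 CPM (17.8 to 21.5) in those under 50, Ccng1 at 292 CPM (285 to 299) against 127 CPM (122 to 132), and Eda2r at 105 CPM (101 to 110) against 46.6 CPM (43.8 to 49.5). In MyoD-WT, Trp53inp1 was at 45.4 CPM (36.3 to 56.1) against 2.35 CPM (2.05 to 2.67), Ccng1 at 277 CPM (254 to 302) against 88.4 CPM (86.5 to 90.3), and Eda2r at 70.2 CPM (58.8 to 83.2) against 23.7 CPM (22.7 to 24.7). The same 3 targets thus differed by Mdm2 level in each clone by more than their counting intervals. The difference was not limited to targets. Cdkn2a, a regulator of p53, was at 478 CPM (470 to 487) against 368 CPM (360 to 376) in MyoD-KO. In MyoD-WT it was at 129 CPM (114 to 147) against 112 CPM (110 to 114), with intervals that just overlap.

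Sesn2 was at 47.3 CPM (44.6 to 50.2) in MyoD-KO cells with Mdm2 at 200 CPM or more, against 17.0 CPM (15.4 to 18.8) in those under 50 CPM, and in MyoD-WT cells at 64.4 CPM (53.5 to 76.9) against 14.6 CPM (13.9 to 15.4). Phlda3 was at 618 CPM (608 to 628) against 377 CPM (369 to 385) in MyoD-KO and at 290 CPM (266 to 315) against 138 CPM (136 to 141) in MyoD-WT. Bax moved less, at 535 against 391 CPM in MyoD-KO and 489 against 342 CPM in MyoD-WT. Trp53 was at 132 CPM (127 to 136) against 128 CPM (124 to 133) in MyoD-KO and at 140 CPM (124 to 158) against 122 CPM (119 to 124) in MyoD-WT, with intervals that overlap. Even among cells with Mdm2 under 50 CPM, where the clones have Mdm2 at 26.3 CPM in MyoD-KO and 20.9 CPM in MyoD-WT, Phlda3, Trp53inp1 and Eda2r stayed higher in MyoD-KO cells. Median depth ran from 41469 to 44437 UMIs over the MyoD-KO steps and from 35687 to 37507 over the MyoD-WT steps. Summed fibroblast markers were also higher in cells at 200 CPM or more of Mdm2, at 865 CPM against 712 CPM in those under 50 CPM in MyoD-KO, and at 181 against 100.2 CPM in MyoD-WT, and their part was not tested.

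**Figure D5:**
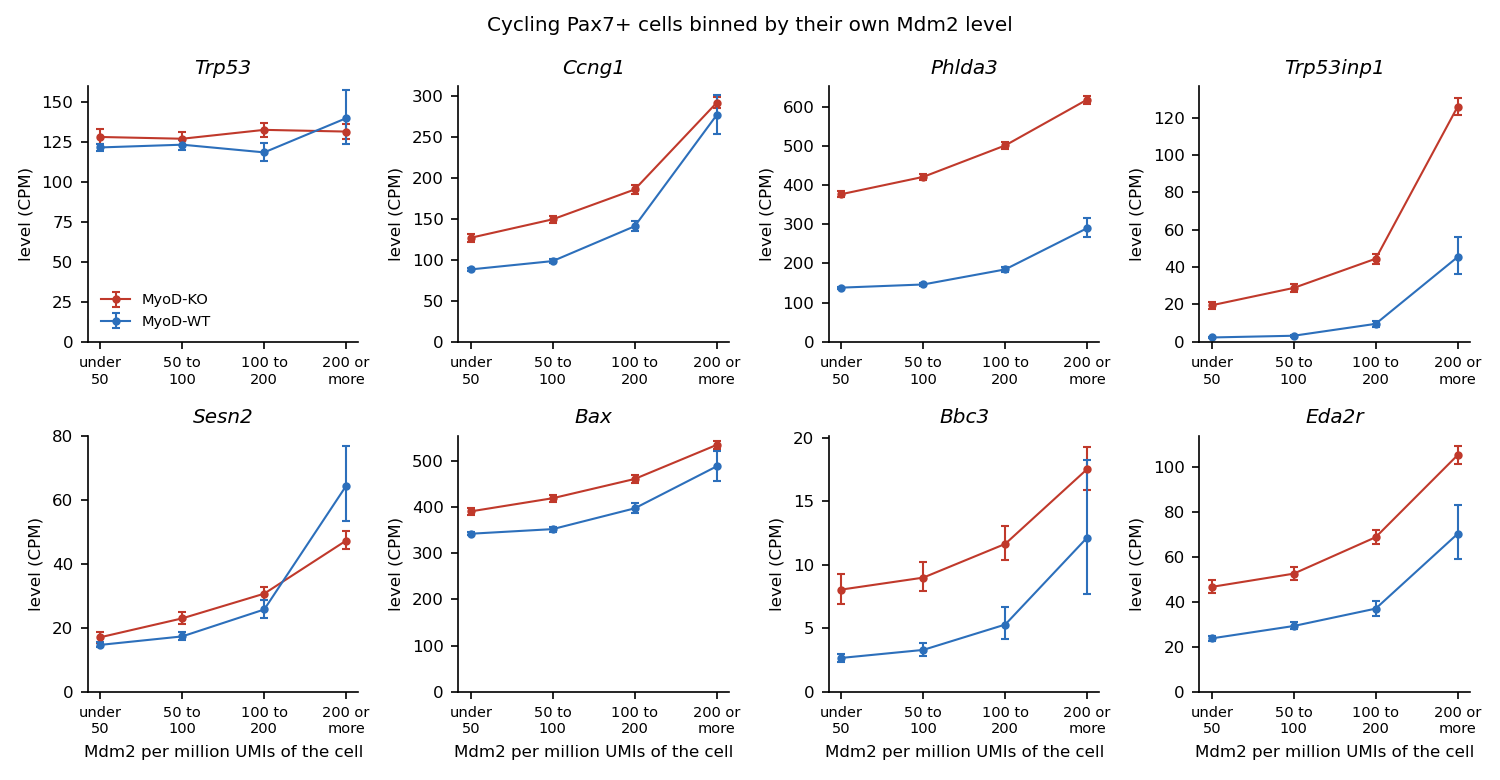
Level in CPM (y axis) of Trp53 and 7 targets in cycling Pax7+ cells binned by the Mdm2 level of the same cell in CPM (x axis), for the MyoD-KO clone (red) and the MyoD-WT clone (blue); error bars are exact 95% Poisson intervals, widest in the 50 MyoD-WT cells of the last bin. Each target is higher in the last bin than in the first in both clones, while Trp53 stays between 119 and 140 CPM.

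Other genes of the pathway were taken from lists beside the 9. Of 32 other p53 targets, 24 were tested over all cells and 6 were higher in MyoD-KO, 0 lower, where 13.3% of all genes were higher and 3.4% lower (median log2 ratio 0.46 against 0.08). Of the 24, 17 had ratios above 1. Btg2, an antiproliferative factor, was at 161 CPM in MyoD-KO and 29.3 CPM in MyoD-WT cells, the epoxide hydrolase Ephx1 at 68.0 and 11.1 CPM, the death receptor Fas at 11.8 and 1.51 CPM, and the reductase Dcxr at 15.5 and 2.99 CPM. These gaps were narrower in muscle-rich cells, with Btg2 at 56.4 and 40.3 CPM and Ephx1 at 12.7 and 2.99 CPM. Fas was at 2.90 and 2.47 CPM there, and Dcxr at 3.52 and 2.84 CPM. Among the targets with ratios below 1 over all cells were Zmat3, at 55.3 and 66.8 CPM, Rps27l, at 1062 and 1392 CPM, Pmaip1 (Noxa), at 8.18 and 12.97 CPM, and Tigar, at 5.48 and 10.7 CPM, which were chosen after their values were seen. In cycling Pax7+ cells 10 of 26 were higher and 1 lower (13.6% and 3.9% of all genes; median 0.60 against 0.10), and in non-cycling Pax7+ cells 6 of 23 higher and 0 lower (12.2% and 3.21%; 0.47 against 0.16). In Myog+ cells 4 of 22 were higher and 2 lower, Pmaip1 and Trp53i11 (10.7% and 4.1%; 0.23 against 0.11), and in muscle-rich cells 3 of 18 higher and 1 lower (10.8% and 6.34%; 0.19 against 0.04). Cdkn1a, the inhibitor of cyclin-dependent kinases by which p53 halts the cycle, was at 307 CPM in MyoD-KO and 100.3 CPM in MyoD-WT cycling Pax7+ cells, at 288 and 130 CPM in non-cycling ones, at 524 and 394 CPM in Myog+ cells and at 1762 and 1224 CPM in muscle-rich cells. It was thus highest in muscle-rich cells of both clones, the group in which Trp53, Sesn2 and Bax were at their lowest. Other genes of the list went the other way. In MyoD-WT, Ccng1 (149 CPM), Eda2r (54.7 CPM) and Bbc3 (6.33 CPM) were at their highest in muscle-rich cells. In MyoD-KO, Phlda3 (475 CPM) and Eda2r (66.2 CPM) were there close to their highest levels, 478 and 68.0 CPM in cycling Pax7+ cells.

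Of 18 regulators of p53, 16 were tested over all cells and 1 was higher, 0 lower (13.3% and 3.4% of all genes; median 0.04 against 0.08). That was Cdkn2a, whose locus encodes Arf, an inhibitor of Mdm2, beside a kinase inhibitor that shares its last exons, so that 3' tags cannot tell the products apart. It was at 388 CPM in MyoD-KO and 120 CPM in MyoD-WT cells, at 414 and 114 CPM in cycling Pax7+ cells and at 225 and 166 CPM in muscle-rich cells. Mdm4, which blocks p53 without degrading it, was at 95.6 CPM in MyoD-KO and 72.9 CPM in MyoD-WT cells, the checkpoint kinases Chek1 at 12.99 and 24.7 CPM and Atr at 25.8 and 47.2 CPM, and the p53-binding protein gene Trp53bp1 at 29.3 and 41.7 CPM. These are values over all cells, and the clones differ in their share of cycling cells. In cycling Pax7+ cells Chek1 was at 21.9 and 32.6 CPM and Atr at 32.8 and 57.8 CPM. The part of the cell mix was not tested. Of 12 genes of the Bcl2 family other than the 2 on the list, 9 were tested and 2 were higher, 0 lower, again beside 13.3% and 3.4% of all genes (median 0.42 against 0.08): Bad, at 50.6 CPM in MyoD-KO and 21.2 CPM in MyoD-WT cells, and Bid, at 12.3 and 5.197 CPM, both of which promote death. The survival genes Bcl2l1 (21.5 and 13.3 CPM) and Bcl2l2 (10.1 and 7.22 CPM) were not counted. Neither were Bak1 (26.9 and 22.1 CPM) and Bok (61.3 and 45.7 CPM), which also promote death. The counts thus do not set death genes apart from survival genes. In cycling Pax7+ cells Bid was at 7.07 and 4.32 CPM, under the minimum of 10 CPM, and was not counted.

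Other cell features differed with the clones. Fibroblast markers (12 genes, summed) were at 796 CPM in MyoD-KO and 104 CPM in MyoD-WT cycling Pax7+ cells, 982 and 215 CPM in non-cycling ones, 251 and 41.2 CPM in Myog+ and 110 and 20.3 CPM in muscle-rich cells. In cycling Pax7+ cells 9 of the 12 were higher in MyoD-KO, 2 lower (Col1a2 and Postn), and Lum had no UMI in either clone. The sum was mostly Col3a1, at 485.5 CPM in MyoD-KO and 82.9 CPM in MyoD-WT cells, and Col6a3, at 257 and 4.45 CPM, while Col1a1 was at 0.274 and 0.0254 CPM, Pdgfra at 1.48 and 0.254 CPM and Dcn at 1.93 and 0.312 CPM. In the other cells Dcn was at 133 CPM in MyoD-KO and 0.411 CPM in MyoD-WT. Cells with these markers at 1000 CPM or more made up 26.7% of MyoD-KO and 0.177% of MyoD-WT cycling Pax7+ cells. Without them, the log2 ratio of Mdm2 in that group was 1.59 (1.73 with them), Phlda3 1.63 (1.71), Trp53inp1 3.78 (3.84), Bbc3 1.84 (1.85) and Eda2r 1.24 (1.33), and the same 5 genes were counted in each Pax7+ group. Over all cells Eda2r was then no longer counted (log2 ratio 0.97, against 1.04). The share of all genes without these cells is not given here, so these counts are not read as results about the list. Immediate early genes, which dissociation can induce, summed to 1095 CPM in MyoD-KO and 315 CPM in MyoD-WT cycling Pax7+ cells and to 512 and 241 CPM in muscle-rich cells, and the median mitochondrial share was 7.53% and 6.74% in cycling Pax7+ and 10.1% and 8.44% in muscle-rich cells. Their part in the results was not tested.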

How the data were processed

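Single-cell 3' tag libraries of 1 MyoD-KO and 1 MyoD-WT clone were deposited as unnormalised UMI counts. Per the file headers, Cell Ranger 7.2.0 wrote them, and the submitters' processing notes add the names GRCm39 and Seurat, with no role stated. The use of strand in counting is not given in the sources used here, and in a GRCm38 annotation another gene overlaps Sesn2 and Bax on the same strand, so reads there may be uncertain.

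From these counts, cells with at least 1000 genes and at most 15% mitochondrial UMIs were kept (1888 MyoD-KO and 873 MyoD-WT barcodes failed). Scrublet in scanpy 1.11.5 called 144 of 5782 MyoD-KO cells (2.49%) and 2 of 7318 MyoD-WT cells (0.0273%) as doublets, which were removed. The MyoD-WT calls are too few to be relied on, so an alternative took out the top 6% of doublet scores per library. Grouping used cells of at least 5000 UMIs and left out 169 MyoD-KO and 80 MyoD-WT cells. The S phase and G2M threshold was placed by Otsu's method on the Pax7+ cells of both clones together.

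Counts were summed per clone and group and scaled to CPM. Ratios have the exact 95% interval conditional on the summed count, shares exact binomial intervals, and TMM factors came from edgeR 4.0.16 in R 4.3.3. UMIs collapse PCR duplicates, and all intervals cover counting error only. Alternatives changed the scaling, cell filters, depth minimum, group limits, CPM minimum and fold limit. The counting of genes past the fold limit was tested on simulated counts with known ratios, whose results are not quoted. No p-value is given. All 9 genes are named, and from each further list of p53 targets, regulators and Bcl2 family genes up to 4 with the largest log2 ratio over all cells, with Cdkn1a, Mdm4 and Cdkn2a always. The genes, lists and groups were chosen with earlier results of these data known.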

Additional observations from a re-analysis of the deposited data

Results flagged for a closer look

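The difference between the clones pointed in opposite directions across cell groups for 2 genes. The log2 ratio of Bax, MyoD-KO over MyoD-WT, was 0.36 in cycling Pax7+, 0.47 in non-cycling Pax7+ and 0.43 in Myog+ cells, but -0.43 in muscle-rich cells. That of Trp53 was 0.09 in cycling Pax7+ and 0.15 in non-cycling Pax7+ cells and -0.12 in muscle-rich cells. The difference between muscle-rich and non-cycling Pax7+ cells pointed in opposite directions in the 2 clones for a further 2 genes. The log2 ratio of Ccng1, muscle-rich over non-cycling Pax7+, was -0.19 in MyoD-KO and 0.67 in MyoD-WT. That of Phlda3 was 0.05 in MyoD-KO and -0.38 in MyoD-WT. None of these differences between groups was tested, since each clone gave 1 library. The opposite signs of Bax remained under TMM scaling, at 0.14, 0.33, 0.24 and -0.50 in the order given, whereas Trp53 in cycling Pax7+ (-0.13), Ccng1 in MyoD-KO (0.35) and Phlda3 in MyoD-WT (0.10) changed sign. Trp53 in muscle-rich cells also did without the top 6% of doublet scores (0.03), and Phlda3 in MyoD-KO with non-cycling cells taken under 1000 CPM (-0.37).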

How the results depend on the processing

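Of 199 counts of called genes under alternative settings, 171 were within 1.5 times the count reported and 28 were not. The 675 alternative values cover called and uncalled log2 ratios together, and no called one changed sign. Of the 99 log2 ratios, called or not, 8 changed sign with TMM, 3 with means over cells, and 2 each without the top doublet scores, with all barcodes and without fibroblast-high cells (chosen after seeing the data). With non-cycling cells taken under 1000 CPM, also chosen then, 8 of 90 did. Of the 675 values 186 moved by more than counting error, at most by 0.84 on the log2 scale, for Mdm2 in non-cycling over cycling MyoD-KO cells under that setting. The counts in the rest of this section are given without the share of all genes, which also moves with the settings. They therefore describe the settings and are not read as results about the list. The counts between the clones held within 1.5 times in all cells and in both Pax7+ groups under every alternative run. In Myog+ cells the 3 genes counted became 5 without the top 6% of doublet scores, 1 with a minimum of 50 CPM and 6 with a 1.5-fold limit, and in muscle-rich cells the 1 gene became 2 with a 1.5-fold limit. For non-cycling over cycling Pax7+ cells, the 0 genes in MyoD-KO became 1 where non-cycling meant under 1000 CPM, and the 1 gene in MyoD-WT became 0 with a minimum of 50 CPM.

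For Myog+ over non-cycling Pax7+ cells, the 1 gene in MyoD-KO became 0 with a minimum of 50 CPM, 2 with means over cells and with sarcomere limits of 1.5% or 6%, 3 without the top doublet scores or without cells near the threshold, 4 with Pax7+ cells taken from 1 UMI, 5 with Myog from 400 CPM, and 6 with a 1.5-fold limit or non-cycling under 1000 CPM. The 2 genes in MyoD-WT became 0 with the G2M list alone or a minimum of 50 CPM, 1 with TMM, 4 with means over cells, without the top doublet scores or with Myog from 400 CPM, and 5 with a 1.5-fold limit or non-cycling under 1000 CPM. For muscle-rich over non-cycling Pax7+ cells, the 6 genes in MyoD-KO became 3 with TMM, and the 2 in MyoD-WT became 1 with a minimum of 50 CPM, 4 with non-cycling under 1000 CPM and 5 with a 1.5-fold limit. The cause of these moves was not tested. No paired analysis was possible because each genotype gave 1 library.

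The limits are those of 1 clone per genotype, groups set by thresholds, and few UMIs for Bbc3, which had 49 UMIs in MyoD-WT non-cycling Pax7+ cells and as few as 23 in the finer steps.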

Other observations

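Across the 8 points made of 4 cell groups in 2 clones, the genes whose log2(CPM + 1) ran most like that of Trp53 among 9355 genes were Mark2 (Pearson r = 0.998), Thrap3 (0.997), Ppia (0.994), Hnrnpu (0.994) and Nmral1 (0.994). Those most like Mdm2 were Tango2 (0.997), Blnk (0.992), Osmr (0.989), Sidt2 (0.989) and Niban1 (0.988). Among the 9 genes, Bax ran most like Trp53 (0.920) and Trp53inp1 most like Mdm2 (0.940), while Trp53 and Mdm2 had an r of 0.289. The points share their libraries, so these values are descriptions.

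In the cells that met none of the group limits, 643 in MyoD-KO and 722 in MyoD-WT, Mdm2 was at 276 CPM (269 to 282.1) in MyoD-KO and 47.3 CPM (44.4 to 50.2) in MyoD-WT cells, and Phlda3 at 591 CPM (582 to 601) and 154 CPM (149 to 159). Trp53 was at 103 CPM (98.7 to 107) and 115 CPM (111 to 120). Fibroblast markers summed there to 1885 CPM in MyoD-KO and 144 CPM in MyoD-WT cells, and their part in these levels was not tested.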
